A study of Mus musculus with 16 samples.

Results

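The transcription factor Nrf2, its inhibitor Keap1 and enzymes of the antioxidant response were described in macrophages and microglia sorted from the mouse brain. The group holds 10 genes of the 18576 in the tables: Nfe2l2, Keap1, Nqo1, Gclm, Gclc, Txnrd1, Srxn1, Sod1, Sod2 and Prdx1. They were chosen by symbol, and the transcripts of each were summed to 1 value per gene. The α-syn model was a striatal injection of preformed fibrils (PFF) or of monomers (MONO), and cells were sorted 2 months after surgery from male and female mice of the C57BL/6N background, WT or with a germ-line deletion of Cd163 (CD163KO), a scavenger receptor of macrophages. SMART-seq2, which copies full-length mRNA from little RNA, gave 16 libraries, with 1 for each combination of sex (F, M), genotype, treatment and population. Microglia were gated as CD11b+ with low or intermediate CD45, and macrophages as CD11b+ with high CD45, a gate in which the methods also count infiltrating cells, neutrophils and NK cells. Mice were 12 weeks old at a bilateral injection, 7 per condition in WT and 5 in CD163KO (4 in male CD163KO MONO), from 2 batches that the labels do not assign to libraries. Every group had surgery, so there was no untreated group.

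Nrf2, the product of Nfe2l2, is held in the cytoplasm by Keap1 and marked for degradation there. Oxidants and electrophiles modify Keap1, and Nrf2 then accumulates in the nucleus and binds, with a small Maf protein, to antioxidant response elements near genes of glutathione synthesis, thioredoxin recycling and quinone reduction. Much of this control acts on the protein, so the mRNA of Nfe2l2 is not a measure of Nrf2 activity, and the levels given here are of mRNA. In brain, myeloid cells both make reactive oxygen species and carry enzymes that remove them.

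Before any comparison, the libraries were found to be of 2 kinds. In 8 of them, named high-share here, the 10 most counted genes took 39.6% to 64.0% of the counts, and in the other 8, named low-share, 13.5% to 16.5%. The high-share libraries were 6 of macrophages and 2 of microglia (male WT PFF and male CD163KO MONO), and the low-share libraries were 6 of microglia and the macrophages of those same male groups. The kind of library thus nearly followed the population, and where the pairs did not follow it they were crossed. Markers nevertheless followed the labels in all 16 libraries: 12 microglia markers summed to at least 9510 in microglia and at most 4401 in macrophages, and 12 markers of border-associated macrophages to at least 3345 in macrophages and at most 85.9 in microglia. Among microglia, the microglia markers summed to 106783 (male WT PFF) and 50322 (male CD163KO MONO) in the high-share libraries. In the 6 low-share microglia libraries they summed to 9510 to 11382. These sums are in scaled FPKM, the deposited FPKM (fragments scaled to transcript length and library total) divided by the TMM factor of the library, a factor that sets most genes level between libraries. TMM factors lay between 0.324 and 0.875 in high-share and between 1.34 and 2.08 in low-share libraries. Cd163 had 748 to 5275 counts in WT and at most 1 in CD163KO macrophages. In microglia it had 0 to 101 counts in WT and 5 to 23 in CD163KO, so there it did not separate the genotypes. Library totals were 8648751 to 21433841 estimated counts, and the male WT PFF macrophages listed the fewest genes (8375). The study left out the male CD163KO MONO libraries because their technical replicates disagreed, so the main tests used 14 libraries. Each library was the only one of its condition, so p-values rest on the spread that the paired or additive terms left between conditions, and the sources do not state whether a table pools the triplicates that were sequenced. The male WT PFF pair, the crossed pair that stays in the main tests, was also left out of each of them.

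Sod1 and Prdx1, the 2 most abundant members, had lower scaled FPKM in all 8 microglia libraries than in any of the 8 macrophage libraries, and Gclc had higher scaled FPKM in all 8 microglia libraries. Populations that do not overlap in this way, in either direction, were seen for 10.6% of the 12940 genes with a scaled FPKM of at least 1 in some library. In the deposited FPKM, before division by the TMM factors, these 3 genes overlapped between the populations, Sod1 at 117 to 416 in microglia and 223 to 663 in macrophages and Prdx1 at 21.6 to 157 and 57.2 to 296. Nfe2l2 and Keap1 overlapped on both scales. Gclm was higher in the 8 high-share than in the 8 low-share libraries, and ranged widely among the high-share macrophages. PFF, the CD163 deletion and sex gave no member that passed the test in either population.

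**Figure D1:**
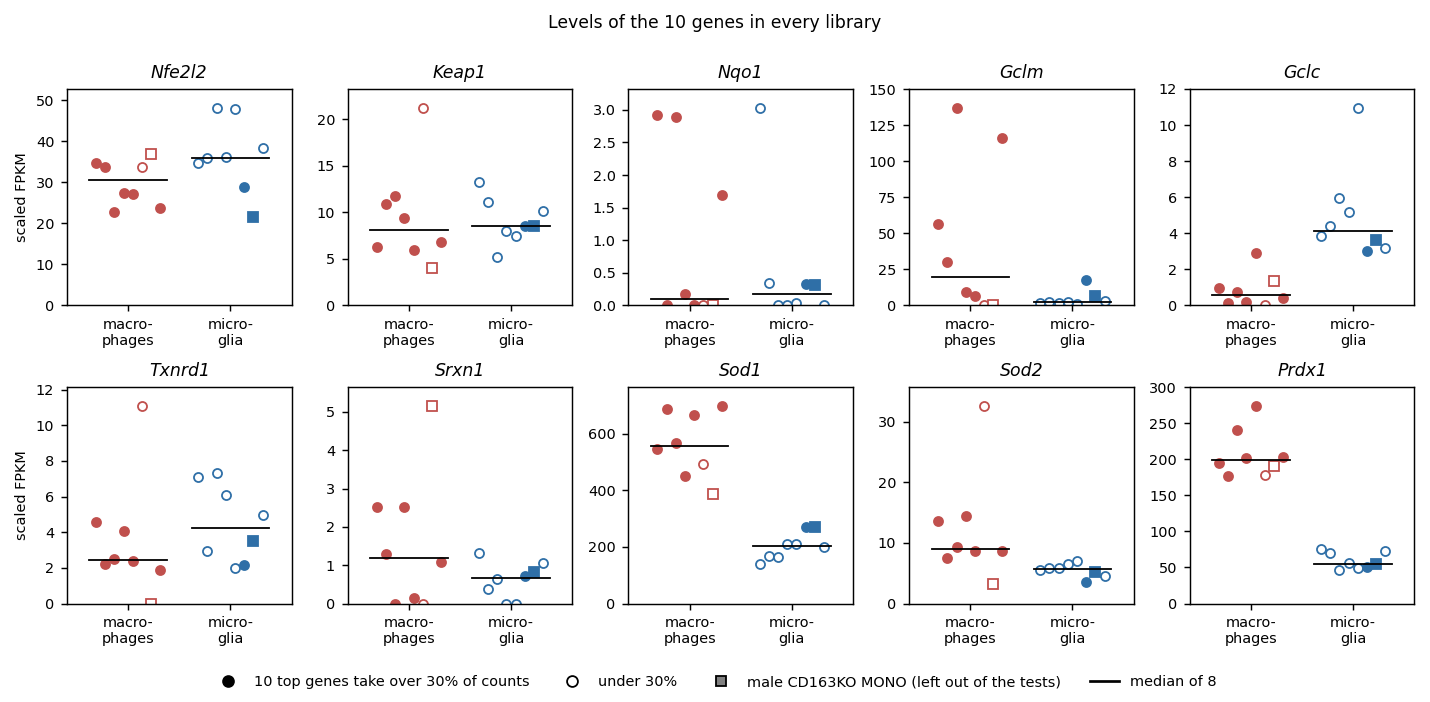
Level of each of the 10 genes in scaled FPKM (y axis, from 0) in the 8 macrophage and 8 microglia libraries, with a line at the median; filled points are high-share libraries, open points low-share, and squares the male CD163KO MONO libraries. Sod1 and Prdx1 do not overlap between the populations, and in Gclm the filled points lie above the open ones in both.

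In macrophages the levels ranked Sod1 (median of 8 libraries 557 scaled FPKM), Prdx1 (198), Nfe2l2 (30.5), Gclm (19.7), Sod2 (9.07), Keap1 (8.10), Txnrd1 (2.44), Srxn1 (1.19), Gclc (0.576) and Nqo1 (0.0902). The ranges of Sod1, Prdx1 and Nfe2l2 did not overlap each other, whereas Gclm, which ranged from 0 to 137, overlapped with every gene from Nfe2l2 down. In microglia the order was Sod1 (204), Prdx1 (55.5), Nfe2l2 (36.0), Keap1 (8.50), Sod2 (5.66), Txnrd1 (4.24), Gclc (4.13), Gclm (2.19), Srxn1 (0.673) and Nqo1 (0.179). Here Prdx1 and Nfe2l2 overlapped slightly, and Keap1, Sod2, Txnrd1 and Gclc overlapped each other. FPKM is scaled to the length of the transcript, so that levels of different genes can be set side by side.

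The promoters of the members were searched for the core of the antioxidant response element, TGACNNNGC, on both strands from 250 bases before to 50 bases after the start of transcription. RefSeq promoters (GRCm38.p6) were at hand for 9 members, in 11 promoters, and 6 members had a match, each with 1. No promoter of Gclc was at hand, so Gclc was not searched. Of all 32851 mouse promoters in the table, 12.4% held the core. The stretches below show that core in capitals, 5′ to 3′ on the strand that carries it, with up to 20 bases on either side, so that the variable bases can be compared between members that did and did not differ between the populations.
Nfe2l2: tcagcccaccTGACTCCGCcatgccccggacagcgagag
Gclm: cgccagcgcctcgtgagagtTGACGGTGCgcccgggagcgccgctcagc
Txnrd1: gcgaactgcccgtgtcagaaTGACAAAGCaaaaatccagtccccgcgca
Srxn1: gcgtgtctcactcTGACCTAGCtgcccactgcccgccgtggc
Sod1: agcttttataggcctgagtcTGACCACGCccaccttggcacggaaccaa
Prdx1: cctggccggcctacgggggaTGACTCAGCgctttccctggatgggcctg

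All 6 stretches read on the minus strand of the genome. That of Nfe2l2 lies at chr2:75704875-75704913, with the match centred 236 bases before the start of transcription. Those of Gclm (chr3:122245403-122245451) and Prdx1 (chr4:116685446-116685494) have the match 130 and 129 bases before the start, and those of Txnrd1 (chr10:82859094-82859142) and Sod1 (chr16:90220686-90220734) 88 and 52 bases before it. In Srxn1 (chr2:152105532-152105573) the match lies 32 bases after the start. The promoters of Nqo1, Keap1 and Sod2 and the other promoters of Txnrd1 held no match in this window. A match is a run of letters and was not tested for binding.

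Nfe2l2 itself was expressed in all 16 libraries, with 308 to 3835 counts. Its scaled FPKM ranged from 22.7 to 36.8 (median 30.5) in macrophages and from 21.5 to 48.0 (median 36.0) in microglia, so the populations overlapped. The difference in the main test, edgeR's quasi-likelihood test within pairs of the same sex, genotype and treatment, was 0.41 on the log2 scale toward microglia (SE 0.22, adjusted p = 0.22). By kind of library, Nfe2l2 ranged from 21.5 to 34.8 in the 8 high-share and from 33.8 to 48.0 in the 8 low-share libraries. Without the male WT PFF pair Nfe2l2 passed the test (0.52, SE 0.19, adjusted p = 0.045).

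Scaling by library totals alone made Nfe2l2 1.99 higher in microglia (adjusted p = 0.011), but the median of all genes then stood at 1.93, against 0.28 in the main test. Relative to that median the difference was 0.051. Nfe2l2 was also called by limma on log2(FPKM + 1), at 1.75 (adjusted p = 0.020), which was 0.86 above the median of all genes in that fit. Keap1, the adaptor that hands Nrf2 to a ubiquitin ligase, had a scaled FPKM of 4.00 to 21.2 in macrophages and of 5.18 to 13.2 in microglia, and differed by -0.12 between the populations (SE 0.37, adjusted p = 0.84). Its highest value came from male WT PFF macrophages, in which 1 transcript, NM_001110306, was assigned 1559 of the 1709 counts. That transcript was listed in 5 of the 16 libraries, while NM_001110307 was listed in all 16.

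The 2 subunits of the enzyme that starts glutathione synthesis had different patterns. Gclc, the catalytic subunit of glutamate-cysteine ligase, had a scaled FPKM of 3.01 to 10.9 in microglia (median 4.13) and of 0 to 2.90 in macrophages (median 0.576). All 8 microglia libraries were above all 8 macrophage libraries, although the nearest pair of values, 3.01 and 2.90, was close. The difference was 3.72 on the log2 scale toward microglia (SE 0.97, adjusted p = 0.019), with 7 of 7 pairs in that direction. In macrophages Gclc rested on few counts, from 0 to 167.

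The call for Gclc was lost without the female CD163KO PFF pair (3.52, adjusted p = 0.061) and without the female WT PFF pair (3.47, adjusted p = 0.060). Within the 8 high-share libraries Gclc was 1.98 higher in microglia (SE 0.93, adjusted p = 0.17), and within the 8 low-share libraries 3.17 higher (SE 1.58, adjusted p = 0.18). These fits had no pair term or sex term, and each set 2 libraries, both of males, against 6. The male CD163KO MONO library, left out of the main test, was among the 2. Neither of these smaller fits called Gclc, and both had the direction of the main test.

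Gclm, the modifier subunit of the same ligase, had a scaled FPKM of 0 to 137 in macrophages and of 0.979 to 17.4 in microglia. In the main test the difference was -3.66, lower in microglia, and was not called (SE 1.44, adjusted p = 0.097). DESeq2 called it (-3.59, adjusted p = 0.0013), as did the fit without the pair term (-3.64, adjusted p = 0.018). In the 8 high-share libraries of both populations the level lay between 6.32 and 137, and in the 8 low-share libraries between 0 and 2.95. These kinds did not overlap for Gclm, as for 2.81% of the genes. The macrophages at 0 were those of the 2 low-share libraries, where 0 counts allow up to 3 counts, and the microglia at 6.32 and 17.4 were those of the 2 high-share libraries. The direction of the population difference turned with the fit: it was -2.20 within the high-share libraries (SE 1.07, adjusted p = 0.19), and 2.88 with the share as a covariate over all 16 libraries (SE 0.89, adjusted p = 0.028). Within the low-share libraries the difference was called at 9.78 (adjusted p = 0.0034), where both macrophage libraries were at 0 and the size depends on the prior count. Without the male WT PFF pair the difference was -4.30 and passed the test (adjusted p = 1.1e-04). In the 6 high-share macrophage libraries Gclm stood at 6.56, 9.51, 29.9, 56.4, 116 and 137, and the markers of neutrophils, which the macrophage gate can hold, summed to 135121, 53921, 68378, 175218, 330093 and 220116 scaled FPKM in the same order. The 3 libraries highest in Gclm were the 3 highest in these markers, and the 2 macrophage libraries at 0 had the lowest sums, 52938 and 53358. The part of the kind of library and of neutrophils in the levels of Gclm was not tested.

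**Figure D2:**
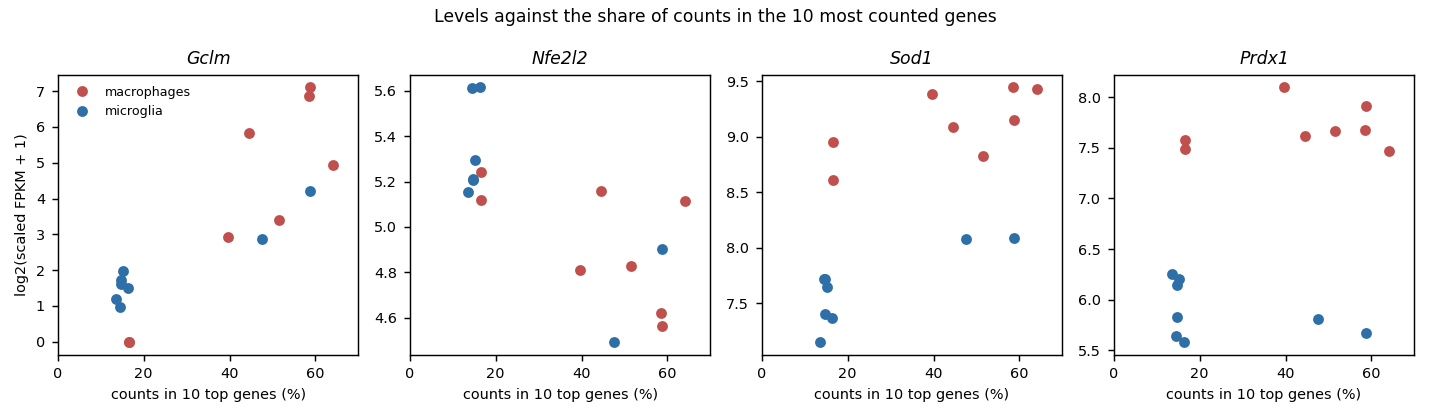
Log2(scaled FPKM + 1) of Gclm, Nfe2l2, Sod1 and Prdx1 (y axes, which differ and do not start at 0) against the percentage of counts in the 10 most counted genes (x axis), with 1 point per library. Gclm lies at 6.32 scaled FPKM or more in all 8 libraries on the right and at 2.95 or less in all 8 on the left, whereas Sod1 and Prdx1 are higher in macrophages on both sides.

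Of the members in the thioredoxin system, Prdx1 was abundant, and Txnrd1 and Srxn1 were scarce. Prdx1, a peroxiredoxin that removes hydrogen peroxide with electrons from thioredoxin, had a scaled FPKM of 176 to 273 in macrophages (median 198) and of 47.0 to 75.4 in microglia (median 55.5). The populations did not overlap, and the ratio of macrophages to microglia within a pair ran from 2.52 to 5.56 over 8 pairs. In the main test Prdx1 differed by -1.81, lower in microglia (SE 0.21, adjusted p = 1.7e-04). Of all 10984 genes tested, 22.8% were called, 8.48% higher and 14.3% lower in microglia. Of the 9 members tested, 1 was called higher (Gclc) and 2 lower (Prdx1 and Sod1), and Nqo1 was filtered out.

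Prdx1 was also lower in microglia in the fits within a kind of library, which have no pair term and 2 against 6 libraries. It differed by -1.91 among the high-share libraries (SE 0.29, adjusted p = 5.4e-04) and by -1.36 among the low-share libraries (SE 0.25, adjusted p = 0.0037). Library totals alone gave -0.31 (adjusted p = 0.63) with the median of all genes at 1.93, and limma on log2(FPKM + 1) gave -0.40 (adjusted p = 0.51) with that median at 0.89. Relative to these medians Prdx1 stood at -2.25 and -1.30.

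Txnrd1, the cytosolic thioredoxin reductase, had a scaled FPKM of 0 to 11.1 in macrophages and of 2.00 to 7.30 in microglia. The populations differed by 0.32 (SE 0.56, adjusted p = 0.72). Library totals alone gave 2.08 (adjusted p = 0.051), and 2.58 over all 16 libraries, which was called (adjusted p = 0.047), with the median of all genes at 1.93 and 1.71. They differed in which transcript RSEM assigned the counts to. NM_015762 was listed in all 8 microglia libraries, with 26.6% to 100% of the Txnrd1 counts (median 66.0%), and in 1 of 8 macrophage libraries. In the 6 high-share macrophage libraries it was not listed, and NM_001042513 took most of the 47 to 149 counts. The male WT PFF macrophages had all 893 counts in NM_015762, and the male CD163KO MONO macrophages had no count of Txnrd1. Among microglia, the 2 high-share libraries had the lowest shares of NM_015762, at 26.6% and 35.2%. Transcripts of a gene share most of their sequence, so these shares are estimates, and they were not tested.

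**Figure D3:**
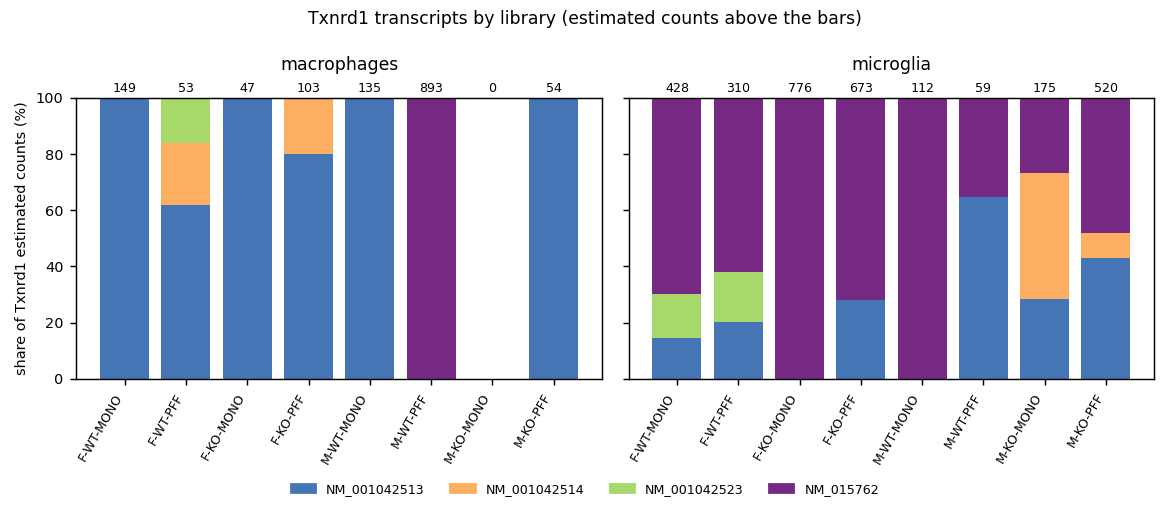
Percentage of the estimated Txnrd1 counts assigned to each RefSeq transcript (y axis, 0 to 100%) in each library (x axis, by sex, genotype and treatment), with the gene's estimated counts above the bars. NM_015762 is present in all 8 microglia bars and in 1 macrophage bar, that of male WT PFF.

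Srxn1, sulfiredoxin, which restores overoxidized peroxiredoxins, had 0 to 421 counts and was at 0 in 2 libraries of each population. Its scaled FPKM was at most 5.14 in macrophages and at most 1.31 in microglia, and the difference of -0.72 had an SE of 2.09. Nqo1, a quinone reductase and a widely used Nrf2 target, was at 0 in 7 of 16 libraries, which allows up to 0.140 to 0.186 CPM (counts scaled to the library total) there. Its highest counts were 82 in microglia and 42 in macrophages, both of female WT MONO mice, and 24 in female CD163KO MONO macrophages. All 8 libraries of males had at most 22 counts of Nqo1. The tests of Nqo1 and Srxn1 thus rest on few counts.

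The superoxide dismutases convert superoxide to hydrogen peroxide, Sod1 in the cytosol and Sod2 in mitochondria. Sod1 had a scaled FPKM of 389 to 697 in macrophages (median 557) and of 141 to 271 in microglia (median 204). No microglia library reached any macrophage library, and the ratio within pairs was 1.44 to 4.09. In the main test Sod1 differed by -1.61, lower in microglia (SE 0.21, adjusted p = 3.2e-04). Within the high-share libraries the difference was -1.03 (SE 0.28, adjusted p = 0.024), and within the low-share libraries -1.06 (SE 0.21, adjusted p = 0.0056). Library totals alone gave -0.15 (adjusted p = 0.80), which was -2.08 relative to the median of all genes. The 2 high-share microglia libraries were at 270.0 and 271, above the 6 low-share ones, which were at 141 to 210.

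Sod2 had a scaled FPKM of 3.25 to 32.5 in macrophages and of 3.54 to 7.08 in microglia, and differed by -1.09 (SE 0.38, adjusted p = 0.062). The highest value belonged to male WT PFF macrophages. Without that pair the difference was -0.78 and passed the test (adjusted p = 0.015). Sod2 was also called within the high-share libraries (-1.14, adjusted p = 0.047), by DESeq2 (adjusted p = 0.022) and without the pair term (-1.29, adjusted p = 0.0075), but not within the low-share libraries (-1.30, SE 0.60, adjusted p = 0.15). Library totals alone turned its direction, to 0.63 higher in microglia (adjusted p = 0.47).

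Without the male WT PFF pair the test called 42.5% of 11233 genes rather than 22.8%, and 6 of 9 members rather than 3. Prdx1 (-1.80, adjusted p = 3.6e-05), Sod1 (-1.72, adjusted p = 1.5e-05) and Gclc (3.14, adjusted p = 7.0e-04) were called in both fits, and Nfe2l2, Gclm and Sod2 were added. Keap1 (0.087), Txnrd1 (0.69) and Srxn1 (-1.53) were not called, at adjusted p of 0.83, 0.13 and 0.50, and Keap1 changed sign.

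**Figure D4:**
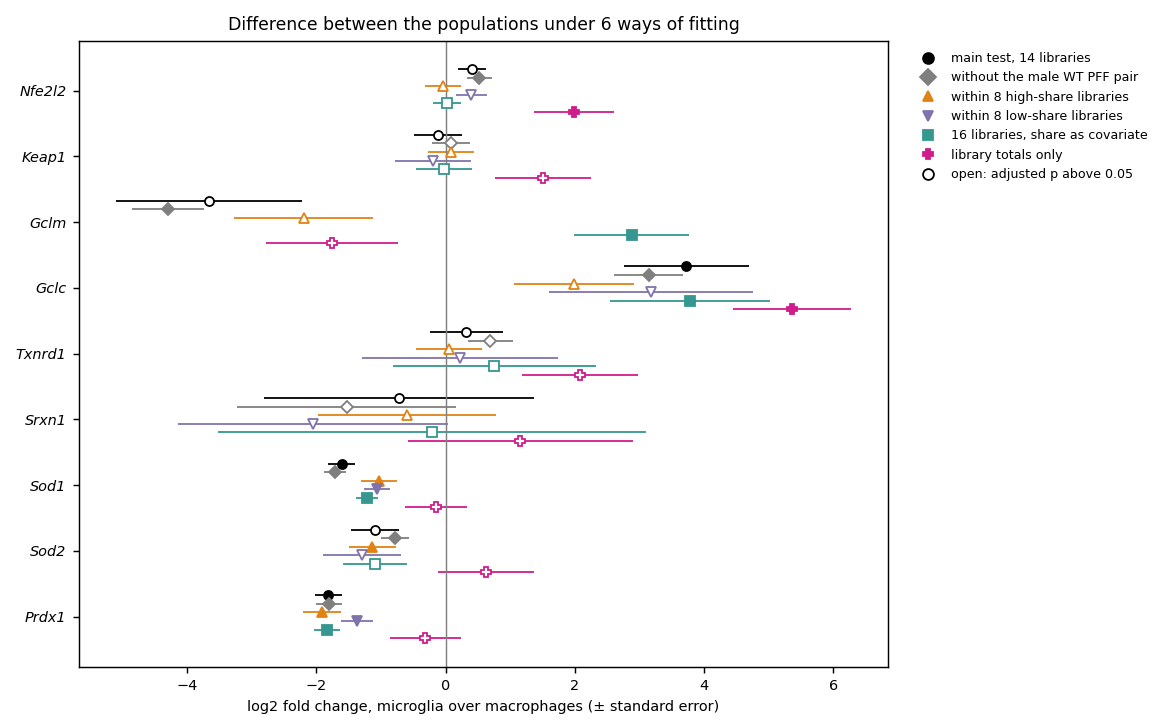
Log2 fold change of microglia over macrophages with its standard error (x axis) for 9 genes under 6 ways of fitting, filled where the adjusted p was at most 0.05. Prdx1 and Sod1 stay below 0 and are filled in all but the fit by library totals, and Gclm lies on both sides of 0; Nqo1 and the value of Gclm within the low-share libraries, where both macrophage libraries are at 0, are not drawn.

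A wider list of 65 genes of glutathione, thioredoxin, heme and NADPH metabolism and Nrf2 partners was set beside the members. Of 61 tested, 32 were lower and 1 was higher in microglia, with a median of -1.43 against 0.28 for all genes. The lower genes with the largest differences were Nfe2, a transcription factor of blood cells (-10.16, SE 1.01), the microsomal glutathione transferases Mgst1 (-7.40, SE 0.93) and Mgst2 (-7.03, SE 1.52) and the secreted peroxidase Gpx3 (-6.70, SE 0.96). Their adjusted p-values were 6.2e-05, 2.8e-04, 0.0071 and 6.0e-04. Nfe2 and Mgst2 were at 0 in 4 of the 7 microglia libraries of this test, so the sizes of their differences, and their places in this order, depend on the prior count. The level of Nfe2 was 25.4 to 113 scaled FPKM in macrophages and at most 0.659 in microglia, and that of Mgst2 8.14 to 50.3 and at most 1.55. Mgst1 was at 104 to 370 in macrophages and at 0 to 4.80 in microglia, and Gpx3 at 73.3 to 259 and at 0 to 4.15, each with 1 microglia library at 0. Msrb2, a mitochondrial methionine sulfoxide reductase, was the gene higher in microglia (1.45, SE 0.26, adjusted p = 0.0023), at 51.0 to 78.0 scaled FPKM against 12.3 to 34.6.

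Within the high-share libraries 25 genes of this list were lower and 2 higher, and within the low-share libraries 22 and 5. Over all genes the same fits called 1228 lower and 1106 higher of 12417, and 1039 lower and 1955 higher of 12952. Under library totals alone the split was 13 lower and 11 higher, while over all genes it moved from 1571 lower and 931 higher to 481 and 5402. Markers of other cells of the macrophage gate moved with the population. Neutrophil markers (12 genes, 11 lower in microglia and 1 higher) summed to 52938 to 330093 in macrophages and to 602 to 3403 in microglia, with 10 to 12 of the 12 listed in each microglia library. Monocyte markers (7 genes, 6 lower) summed to 876 to 2842 and to 11.3 to 42.3. Among the other lists, markers of NK and T cells (2 of 3 tested), erythroid cells (2 of 4), endothelium (2 of 4), astrocytes (2 of 6) and pituitary (1 of 2) were also lower in microglia, and none of these lists had a gene called higher. Erythroid markers summed to 101 to 2992 in macrophages and to 96.3 to 328 in microglia. Markers of choroid plexus, with 0 of 6 called, summed to 54.6 to 18247 and to 255 to 1267. Of oligodendrocytes, neurons and B cells no marker was called (6, 3 and 2 tested). The part of these cells in the differences of Sod1, Prdx1, Gclc, Gclm and the wider list was not tested, and in sorted populations a different mix of cells and a different level per cell cannot be told apart.

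PFF was next compared with MONO within each population, with sex and genotype as additive terms over 7 libraries. No member was called in macrophages (10 tested) or in microglia (9 tested), and over all genes 0% of 11116 and 0% of 11753 were called. At an unadjusted p under 0.05, edgeR had 0 members in either population, and 126 and 739 genes in all. DESeq2 and limma called no member either, with 1 member each at an unadjusted p under 0.05 in macrophages (Nqo1 and Gclm) and 0 in microglia, and 5 and 2 genes called in macrophages and 30 and 1 in microglia. The median difference over the members was 0.11 in macrophages and -0.26 in microglia, beside medians of -0.11 and 0.12 over all genes. Of the wider list, 0 of 63 genes in macrophages and 0 of 61 in microglia were called by edgeR, with 1 and 2 at an unadjusted p under 0.05, and DESeq2 and limma called none of this list either.

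In macrophages Nfe2l2 stood at 34.8 (female WT), 22.7 (female CD163KO) and 27.0 (male WT) after MONO. After PFF it stood at 33.7, 27.4 and 33.8 in the same groups and at 23.6 in male CD163KO. The ranges overlapped, and the difference was 0.22 (SE 0.36). In microglia the values after MONO were 34.7, 48.0 and 47.9, and after PFF 35.9, 36.1 and 28.9, with 38.3 in male CD163KO. PFF was on the low side of MONO in female CD163KO and male WT microglia but not in female WT, and the difference of -0.35 (SE 0.27, adjusted p = 0.81) did not pass.

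Sod1 in macrophages was at 545, 568 and 667 after MONO and at 688, 452, 494 and 697 after PFF (female WT, female CD163KO, male WT and male CD163KO), with a difference of 0.01 (SE 0.32). In microglia Sod1 was at 141, 164 and 209 after MONO and at 168, 210, 271 and 199 after PFF. Each of these 3 matched pairs was higher after PFF, but the pair left out of the tests, male CD163KO, went the other way, from 270.0 after MONO to 199 after PFF. The overall difference of 0.26 (SE 0.30, adjusted p = 0.88) was within the spread. Prdx1 differed by -0.33 in macrophages (SE 0.28) and by 0.19 in microglia (SE 0.31), with ranges of 176 to 203 after PFF against 195 to 273 after MONO in macrophages and of 50.1 to 72.6 against 47.0 to 75.4 in microglia.

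In macrophages the glutathione genes had wide errors in the comparison of PFF with MONO (Gclm -0.69, SE 1.79, and Gclc -3.44, SE 2.38), and Srxn1 and Nqo1, with few counts, had wider ones (SE 3.86 and 4.95). In macrophages Gclm was at 56.4, 137 and 6.56 after MONO and at 29.9, 9.51, 0 and 116 after PFF. The neutrophil markers of these macrophages summed to 175218, 220116 and 135121 after MONO and to 68378, 53921, 53358 and 330093 after PFF, so that in each of the 3 matched pairs of the test both Gclm and the markers were lower after PFF. In the pair left out, male CD163KO, both were higher after PFF, Gclm at 116 against 0 and the markers at 330093 against 52938. The part of neutrophils was not tested. Gclc in macrophages was at 0.983, 0.736 and 2.90 after MONO and at 0.123, 0.197, 0 and 0.417 after PFF, from 14 to 167 and from 0 to 12 counts. Each PFF value was below each MONO value, which held, in either direction, for 4.8% of the genes with a scaled FPKM of at least 1, and the difference was not called (adjusted p = 1.00). The left-out MONO library had 1.34. In microglia Gclm was at 1.31, 1.82 and 0.979 after MONO and at 2.30, 2.09, 17.4 and 2.95 after PFF, where 17.4 is from the high-share male WT library. In microglia each PFF value was thus above each MONO value, which held, in either direction, for 9.1% of those genes. The left-out MONO library, male CD163KO and high-share, stood at 6.32, above 3 of the 4 PFF values, so the groups overlapped with it. In the test the difference was 1.45 (SE 0.93, adjusted p = 0.78). The PFF effect on Gclm in microglia minus that in macrophages was 3.34 (SE 2.94, adjusted p = 1). Gclc in microglia was at 3.87, 5.97 and 10.9 after MONO and at 4.40, 5.20, 3.01 and 3.18 after PFF, with a difference of -0.77 (SE 0.44, adjusted p = 0.76). No member was called for a difference between the populations in its response to PFF (9 tested; 0% of 10984 genes called; 0 members at an unadjusted p under 0.05 by edgeR, 1 by DESeq2 and 1 by limma, with 11 and 0 genes called in all by those 2 tools).

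Of the other members, Keap1 differed between PFF and MONO by 0.63 in macrophages (SE 0.70) and by 0.33 in microglia (SE 0.37). Sod2 differed by 0.57 (SE 0.67) and -0.26 (SE 0.33), and Txnrd1 by 0.67 (SE 1.16) and -0.37 (SE 0.46). Srxn1 differed by 0.24 and -0.81 with the errors of few counts, and Nqo1 by -5.18 in macrophages, while it was filtered out in microglia. No member was called without the male WT PFF library either. Txnrd1 (-0.18) and Sod2 (-0.12) in macrophages then changed sign, and Gclm in microglia was 0.73 rather than 1.45. Nfe2l2 was 0.17 in macrophages and -0.29 in microglia, Sod1 0.12 and 0.13, Prdx1 -0.30 and 0.30, Gclc -2.49 and -0.58, and Gclm in macrophages -0.40. The effect of PFF in microglia minus that in macrophages was -0.55 for Nfe2l2, -0.27 for Keap1, 3.16 for Gclc, -0.73 for Txnrd1, -0.90 for Srxn1, 0.28 for Sod1, -0.63 for Sod2 and 0.54 for Prdx1, and Nqo1 was filtered out.

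**Figure D5:**
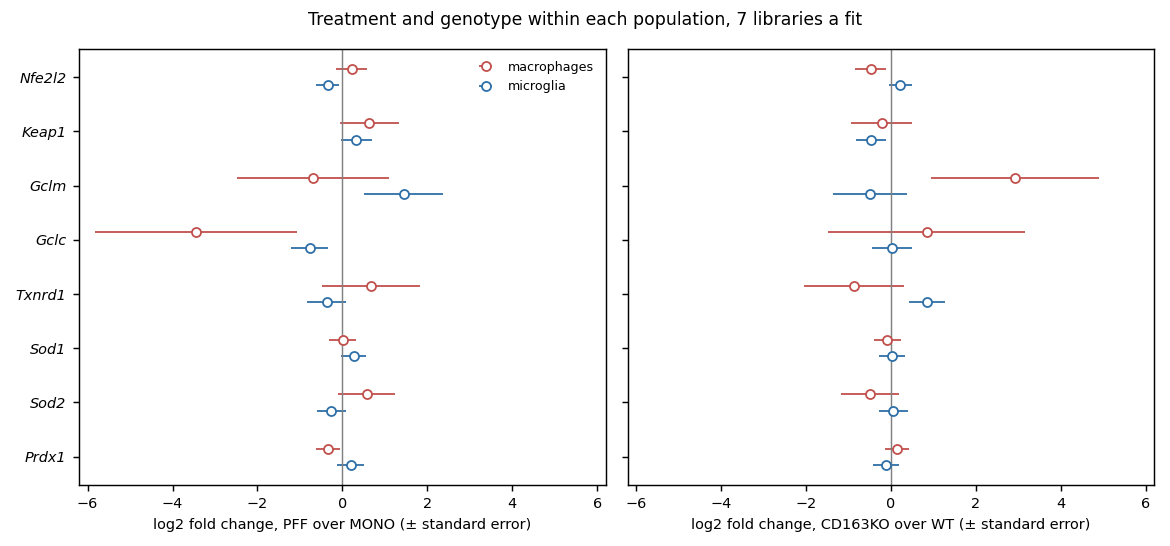
Log2 fold changes with standard errors (x axis) of PFF over MONO (left) and CD163KO over WT (right) for 8 genes in macrophages and microglia, 7 libraries a fit; open points have an adjusted p above 0.05. All points are open, and Gclm and Gclc in macrophages have the widest errors; Nqo1 and Srxn1, with few counts, are not drawn.

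The deletion of Cd163 was compared with WT in the same fits. No member was called, and 0.009% of 11116 genes in macrophages (1 gene, Cd163 itself) and 0% of 11753 in microglia were called. In macrophages 0 members had an unadjusted p under 0.05 by edgeR and 1 each by DESeq2 (Nqo1) and limma (Gclm), and in microglia 0 by all 3 tools. DESeq2 and limma called 1 and 4 genes in macrophages and 1 and 0 in microglia, none of them members. The members had a median difference of 0.03 in macrophages and 0.02 in microglia, beside 0.15 and -0.02 over all genes. The wider list again had 0 called of 63 and of 61 by edgeR, with 1 and 0 genes at an unadjusted p under 0.05, and none was called by DESeq2 or limma.

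Nfe2l2 in CD163KO macrophages was at 22.7, 27.4 and 23.6 (female MONO, female PFF and male PFF), and in WT at 34.8, 33.7, 33.8 and 27.0 (the last from male MONO). The CD163KO libraries thus lay below WT in each of the 3 matched pairs of the test, with a difference of -0.48 (SE 0.36, adjusted p = 1) that did not pass. In the male PFF pair the kinds of library differed as well: WT was low-share and CD163KO high-share in macrophages, and the reverse in microglia. In microglia the matched values were 48.0, 36.1 and 38.3 in CD163KO and 34.7, 35.9 and 28.9 in WT, and the difference was 0.22 (SE 0.27, adjusted p = 1.00). The male MONO pair, left out of the tests, was reversed in both populations, with CD163KO at 36.8 and WT at 27.0 in macrophages and at 21.5 and 47.9 in microglia. The difference of these differences was 0.70 (SE 0.48, adjusted p = 1), and no member was called for it (9 tested; 0% of 10984 genes called; 0 members at an unadjusted p under 0.05 by edgeR, 0 by DESeq2 and 1 by limma, with 5 and 0 genes called in all by those 2 tools). Without the male WT PFF pair it was 0.57 (SE 0.40).

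Sod1 differed between genotypes by -0.08 in macrophages (SE 0.31) and by 0.03 in microglia (SE 0.31), and Prdx1 by 0.15 (SE 0.29) and -0.11 (SE 0.30). Gclm was 2.92 higher in CD163KO macrophages (SE 1.99, adjusted p = 1), from 137, 9.51 and 116 against 56.4, 29.9, 0 and 6.56, so the groups overlapped. The neutrophil markers of these libraries summed to 220116, 53921 and 330093 against 175218, 68378, 53358 and 135121, and their part was not tested. In microglia Gclm differed by -0.49 (SE 0.87). Txnrd1 in microglia was at 7.30, 6.07 and 4.99 in CD163KO and at 7.10, 2.95, 2.18 and 2.00 in WT, a difference of 0.85 (SE 0.43, adjusted p = 1.00), and in macrophages it differed by -0.88 (SE 1.18).

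Keap1 differed between genotypes by -0.22 in macrophages (SE 0.71) and by -0.48 in microglia (SE 0.36). Gclc differed by 0.84 (SE 2.32) and 0.02 (SE 0.46), Sod2 by -0.50 (SE 0.68) and 0.06 (SE 0.34), and Srxn1 by 1.15 (SE 3.93) and -0.25 (SE 2.13). Nqo1 in macrophages differed by 4.49 (SE 3.66). In microglia Nqo1 was filtered out of the main test. It had 82, 16, 1 and 4 counts in WT microglia and 0 in the 3 CD163KO microglia. As 0 counts allow up to 3 counts, the WT library with 1 count cannot be told from those at 0. The male CD163KO MONO microglia, which the main test leaves out, had 7 counts. Tested without the filter Nqo1 differed by -7.98 in microglia (SE 3.41, unadjusted p = 0.020 and adjusted p = 1 by edgeR), a fold that depends on the prior count, and limma gave -1.06 (adjusted p = 0.97).

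No member was called between genotypes without the male WT PFF library. Keap1 (0.18), Gclc (-0.066), Sod2 (0.18) and Srxn1 (-1.77) in macrophages and Gclm (0.42), Gclc (-0.12) and Sod2 (-0.085) in microglia changed sign. Nfe2l2 was then -0.44 in macrophages and 0.15 in microglia, Sod1 -0.22 and 0.14, Prdx1 0.10 and -0.25, Txnrd1 -0.060 and 0.88, and Gclm in macrophages 1.75. The genotype effect in microglia minus that in macrophages was -0.24 for Keap1, -2.46 for Gclm, -1.20 for Gclc, 1.53 for Txnrd1, -0.85 for Srxn1, 0.10 for Sod1, 0.40 for Sod2 and -0.27 for Prdx1, with Nqo1 filtered out.

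Between males and females no member was called, with 10 tested in macrophages and 9 in microglia. Over all genes, 0% of 11116 and 0% of 11753 were called by edgeR, 16 and 16 genes by DESeq2 and 10 and 5 by limma. EdgeR had 153 and 193 genes at an unadjusted p under 0.05. EdgeR, DESeq2 and limma each had 0 members at an unadjusted p under 0.05 in either population. Males minus females, Nfe2l2 differed by -0.18 in macrophages and 0.07 in microglia, Keap1 by -0.02 and -0.16, Sod1 by 0.13 and 0.38, Sod2 by 0.20 and -0.20 and Prdx1 by 0.17 and -0.15. Gclm differed by -1.58 and 1.08, Gclc by 0.87 and 0.14, Txnrd1 by -0.02 and -0.77 and Srxn1 by -2.60 and 0.76, and Nqo1 by 0.07 in macrophages. With the male WT PFF library left out no member was called, and Sod2 in macrophages (-0.36) and Gclm in microglia (-0.12) changed sign.

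The spread of the abundant members over the 7 libraries of a population bounds what these fits could show: the standard error of a treatment, genotype or sex difference was 0.28 to 0.32 on the log2 scale for Sod1 and Prdx1, and 1.79 to 2.17 for Gclm in macrophages.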

How the data were processed

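SMART-seq2 libraries, 16 in all, were made from sorted brain macrophages and microglia of mice given MONO or PFF. The authors removed rRNA and low-quality reads, mapped with Bowtie2 and quantified with RSEM, and the submitters' processing notes name the build mm10. The authors deposited estimated counts, which RSEM gives unnormalized per RefSeq transcript, and FPKM, scaled to transcript length and assigned reads. Transcripts not listed were taken as 0. Transcripts were summed to 18576 genes by symbol (RefSeq, GRCm38.p6; 27627 of 27787 transcripts named), and those without a symbol took at most 0.142% of a library's counts. Library totals of 8648751 to 21433841 counts limit the precision of low genes, and floors and counts cover counting error only, since PCR copies are counted as reads.

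Estimated counts were rounded and tested with edgeR 4.0.16 (R 4.3.3; TMM factors, filterByExpr, quasi-likelihood test, Benjamini-Hochberg over all genes, called at an adjusted p of at most 0.05; SE taken as the log2 fold change over the square root of its F statistic). The population was tested within pairs of equal sex, genotype and treatment over 14 libraries, and treatment, genotype and sex as additive terms over the 7 libraries of a population, with interaction terms for differences between populations. Alternatives were DESeq2 1.42.0, limma 3.58.1 on log2(FPKM + 1), RLE factors, library totals, no filter, a log2 fold change of at least 1, no pair term, the excluded libraries included and each library or pair left out. Fits over all 16 libraries with the share of the 10 most counted genes as a covariate or with library totals, and fits within libraries of either kind, were added after seeing the data. The fits within a kind had no pair or sex term, included a male CD163KO MONO library and set 2 libraries of males against 6. The procedure was tested on simulated data. All 10 members are named in every comparison, and of the wider list the 4 called genes with the largest change in each direction. Markers were used by counts and sums, and single genes of them, such as Cd163, only beside a result. Promoters with a match to the response element are printed. Members and lists were chosen with earlier results of these data known. Batches were not analysed here.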

Additional observations from a re-analysis of the deposited data

Results flagged for a closer look

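Among the 8 libraries of a population, which differ in sex, genotype and treatment, 7 of 20 checks (10 genes in 2 populations) had a library far from the rest by Dixon's ratio. The nominal rate of about 1 check in 20 is for normal values of 1 group, which these are not, and the same check marked 25.1% of 25395 over all genes (29.9% in macrophages and 20.3% in microglia). Of these, 3 were the male WT PFF macrophages, which had the highest scaled FPKM of Keap1 (21.2, next 11.7), Txnrd1 (11.1, next 4.60) and Sod2 (32.5, next 14.5). Their matched microglia had the highest Gclm (17.4, next 6.32). Male WT MONO had the highest Gclc in both populations, 2.90 in macrophages (next 1.34) and 10.9 in microglia (next 5.97). Nqo1 was highest in female WT MONO microglia (3.02, next 0.342). With the male WT PFF pair left out of the test of the populations, 6 members were called rather than 3, and 42.5% of all genes rather than 22.8%.

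Effects of opposite direction in all 3 matched comparisons of each population among the tested libraries were seen for 2 members. For both, the fourth comparison, with the left-out male CD163KO MONO libraries, was reversed in both populations. This check was run only on the members, for treatment and genotype. Its share over all genes was not computed, so the count has no background to be set beside. CD163KO over WT was below 1 for Nfe2l2 in macrophages (0.652, 0.815 and 0.699) and above 1 in microglia (1.39, 1.00 and 1.32, the middle value being 1.004 before rounding), and the interaction was 0.70 (SE 0.48, adjusted p = 1 by edgeR). The male PFF comparison sets a low-share WT against a high-share CD163KO library in macrophages (33.8 and 23.6) and the reverse in microglia (28.9 and 38.3), and Nfe2l2 was 33.8 to 48.0 in low-share and 21.5 to 34.8 in high-share libraries. Without the male WT PFF pair the interaction was 0.57 (SE 0.40). PFF was below MONO for Gclm in macrophages (0.530 and 0.0694 in females, 0 counts against 224 in male WT) and above it in microglia (1.75, 1.15 and 17.8), with an interaction of 3.34 (SE 2.94, adjusted p = 1), and of 1.42 (SE 0.99) without the male WT PFF pair. The neutrophil markers were lower after PFF in the same 3 macrophage pairs (68378 against 175218, 53921 against 220116 and 53358 against 135121). In the fourth comparisons, Nfe2l2 in male MONO was at 36.8 in CD163KO and 27.0 in WT macrophages and at 21.5 and 47.9 in microglia. Gclm in male CD163KO was at 116 after PFF and 0 after MONO in macrophages and at 2.95 and 6.32 in microglia, and the neutrophil markers of these macrophages were at 330093 and 52938. The part of the kind of library and of neutrophils was not tested. Neither difference passed the test.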

How the results depend on the processing

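The count of members that differed between the populations, 3 in the main test, was 5 with DESeq2 and 5 without the pair term, and 2 to 6 with a pair left out (6 without male WT PFF, when Nfe2l2, Gclm and Sod2 joined). The tally of 1 higher and 2 lower became 2 higher and 0 lower under library totals (14 or 16 libraries) and limma. It was 2 and 2 with the share as covariate, 0 and 3 within the high-share and 1 and 2 within the low-share libraries. In the low-share fit the member called higher was Gclm (9.78, adjusted p = 0.0034), with both macrophage libraries at 0, and Gclc was not called. Over all genes limma called 5598 higher and 676 lower of 13315, and library totals with 16 libraries 3886 and 490 of 10903. With the share as covariate (TMM) 2377 genes were higher and 1535 lower of 10903. The share of all genes called was 40.7% with DESeq2, 27.6% without the pair term and 42.5% without male WT PFF, against 22.8%. Library totals called 53.6% (14 libraries) and 40.1% (16 libraries) of all genes, and limma 47.1%. The covariate fits called 35.9% (TMM) and 36.1% (library totals), and those within a kind 18.8% (high-share) and 23.1% (low-share). With any pair other than male WT PFF left out, 16.4% to 17% of all genes were called. DESeq2 called 4475 genes in all, library totals 5883, limma 6274 and the fit without male WT PFF 4777, against 2502. Sod1 and Prdx1 were called in 18 of 21 fits and lost the call under library totals (14 or 16 libraries) and limma on FPKM. Gclc was positive in all 21 fits and called in 17. The counts of members for treatment, genotype, sex and the interactions were 0 under every alternative.

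Of the population differences, Nfe2l2 became -0.045 within the high-share libraries. Keap1 turned to 1.51 (library totals), 0.24 (no filter), 1.15 (limma), 0.030 (excluded libraries included), 0.24 (covariate with library totals), 1.32 (16 libraries, library totals) and 0.086 (high-share), and lay between -0.33 and 0.087 with a pair left out. Gclm turned to 2.88 and 3.47 with the share as covariate (TMM, library totals) and 9.78 within the low-share libraries, where macrophages were at 0 and the value depends on the prior count. Srxn1 turned to 1.15, 0.27, 0.079 and 0.42 under library totals, limma, the covariate with library totals and 16 libraries with library totals, and lay between -1.55 and 0.17 with a pair left out. Sod2 turned to 0.63, 0.24 and 0.50 under library totals, limma and 16 libraries with library totals.

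Treatment and genotype differences of Nfe2l2, Sod1 and Prdx1, none of them called, also changed sign. For PFF in macrophages, Nfe2l2 became -0.012 (limma) and -0.038 (excluded libraries included), and Sod1 -0.0055 (RLE), -0.20 (library totals), -0.0056 (DESeq2) and -0.27 (limma). For PFF in microglia, Sod1 became -0.31 and -0.34 and Prdx1 -0.25 and -0.39 under library totals and limma. For CD163KO, Prdx1 became -0.27 and -0.26 in macrophages and 0.33 and 0.40 in microglia under the same settings, and Nfe2l2 -0.040 in microglia with the excluded libraries included. With 1 library left out, Sod1 lay between -0.37 and 0.12 (PFF, macrophages), -0.31 and 0.26 (CD163KO, macrophages) and -0.13 and 0.30 (CD163KO, microglia), and Prdx1 between -0.48 and 0.093 (CD163KO, microglia). The causes were not tested. No analysis by replicate number was possible because each condition has 1 library. Genes with few counts in most libraries (Nqo1, Srxn1, and Gclc in macrophages) are limited by depth.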
